A study of Mus musculus with 6 samples.

Results

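Transcription factors linked to effector differentiation of CD8 T cells were examined in sorted CD44-low CD8+ T cells of mice with and without the sanroque mutation of Roquin. The set was the 9 genes Tbx21, Prdm1, Zeb2, Id2, Runx3, Runx1, Bhlhe40, Zfp683 and Nfil3, chosen by name. Of these 9, 8 had a probe set with a single gene symbol, out of 19938 genes measured in all, and Zfp683 (Hobit) was not analysed here. The wild-type group was Roquin+/+ and the sanroque group Roquinsan/san, both on C57BL/6 and both 10 weeks old, with 3 arrays of separate biological replicates in each. Cells were stained and sorted from spleen and lymph node suspensions, and no treatment is named for either group. The labels give a homozygous genotype of the mouse, not one restricted to T cells, and name no sex, batch or number of animals per sample. Roquin, encoded by Rc3h1, binds stem-loop elements in mRNAs and promotes their decay.

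A naive CD8 T cell that meets its antigen relies on a layered set of transcription regulators. T-bet (Tbx21) opens the cytotoxic and interferon gamma program, Zeb2 acts beneath it in terminal effector cells, and Blimp-1 (Prdm1) represses genes of naive and memory-precursor cells. Id2 holds E proteins off DNA, Runx3 sets and keeps the CD8 lineage program with Runx1 as its relative, and Bhlhe40 and Nfil3 are regulators induced by activation and cytokines. Several are not specific to T cells: Zeb2, Id2, Bhlhe40 and Nfil3 are also expressed by myeloid cells, Prdm1 by plasma cells, and Tbx21 and Id2 by NK cells.

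The sequence just upstream of 3 of these genes is shown because Tbx21 and Prdm1 were among the members with a called rise and each held the letters CACCTG, a site read by ZEB proteins, while the Runx3 window held a pair of Runx letters. The stretches are the 250 bases before the RefSeq start in build GRCm38.p6, 5′ to 3′ on the gene's strand, with every match to the searched letters in capitals.
Tbx21 (chr11:97115332-97115581, minus strand): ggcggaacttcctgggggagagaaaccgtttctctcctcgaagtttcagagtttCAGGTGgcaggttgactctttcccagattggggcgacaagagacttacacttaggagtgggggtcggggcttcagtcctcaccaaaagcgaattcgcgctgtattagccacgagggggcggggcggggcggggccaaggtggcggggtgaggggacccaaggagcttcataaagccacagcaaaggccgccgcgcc
Prdm1 (chr10:44458749-44458998, minus strand): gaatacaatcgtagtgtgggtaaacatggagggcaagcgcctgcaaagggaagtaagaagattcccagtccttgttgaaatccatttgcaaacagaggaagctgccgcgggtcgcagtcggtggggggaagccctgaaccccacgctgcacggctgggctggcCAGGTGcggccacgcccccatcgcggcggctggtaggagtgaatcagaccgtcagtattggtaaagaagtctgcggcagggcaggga
Runx3 (chr4:135120395-135120644, plus strand): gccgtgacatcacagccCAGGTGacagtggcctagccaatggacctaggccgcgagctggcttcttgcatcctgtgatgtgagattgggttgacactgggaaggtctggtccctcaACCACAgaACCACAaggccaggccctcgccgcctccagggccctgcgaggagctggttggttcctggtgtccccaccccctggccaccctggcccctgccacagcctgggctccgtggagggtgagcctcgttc
RefSeq gave 12 windows for 7 of the 9 genes, each from 250 bases before to 50 after a start. The letters were searched on both strands, so CACCTG may appear on the gene's strand as its complement CAGGTG. Likewise the first Runx motif, TGTGGT, may appear there as its complement ACCACA. The ZEB letters, as CAGGTG, began at position -196 from the start in Tbx21, -87 in Prdm1, -233 in the upstream of the 2 Runx3 windows and -136 in the upstream of the 2 Runx1 windows. These letters were present in 20.2% of all 32851 windows, so holding them is common. ACCACA stood at -134 and -126 in the Runx3 window and at 28 and 36 in the Runx1 window, while 22.4% of all windows held TGTGGT or the second Runx motif searched, which is TGCGGT. The Runx1 window also held CACGTG, the E-box read by BHLHE40, at -71 (7.15% of windows). No member window held TCACACCT for T-box proteins (1.28% of windows), the Blimp-1 consensus (0.253%) or TTACGTAA for NFIL3 (0.119%), and the 4 Zeb2 windows held none of the searched letters.

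Libraries that stood apart are described first. Sanroque replicate 1 was the only array with a high level of Xist, at 11.20 on the log2 scale against 4.02 to 4.17 elsewhere, and its Y-linked Eif2s3y read 4.26 against 9.77 to 10.19. Its Y-linked Kdm5d (4.87) and Uty (3.92) were also low. By these genes that sample read as female and every other array as male, so sex differed inside the sanroque group only. Wild type replicate 2 had the highest B cell and myeloid marker medians of the wild-type arrays, 7.79 and 6.58 against at most 6.69 and 6.15. Cd8a was high on every array, between 12.99 and 13.05. The summed intensity of 6 CD8 T cell markers was lower in sanroque, at 32032 to 32824 against 34821 to 36081 in wild type. Levels are log2 of the deposited intensity, folds are sanroque minus wild type with the standard error of limma's fit, and the threshold for a call was 0.05 for limma's p after Benjamini-Hochberg adjustment over the 19938 genes.

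Tbx21, Zeb2, Prdm1 and Bhlhe40 rose in sanroque cells, and the 4 other measured factors did not pass. Tbx21 was 5.51-fold and Zeb2 4.54-fold higher, while Prdm1 was 2.45-fold and Bhlhe40 2.43-fold higher. Across all genes 5.77% were called, 3.26% higher and 2.51% lower, against 4 higher and 0 lower of the 8 factors. All 4 were both called and at least 2-fold higher, as were 1.23% of all genes. The count of 0 lower was also 0 at an unadjusted p below 0.05. All 8 factors had a log2 fold above 0, as did 38.5% of all genes, and their median fold was 0.88 against -0.03 over all genes. In 6 of the 8 the lowest sanroque array lay above the highest wild-type array, which was so for 9.46% of all genes. In RNA from a sorted bulk population, a larger share of expressing cells and more RNA per cell cannot be told apart.

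**Figure D1:**
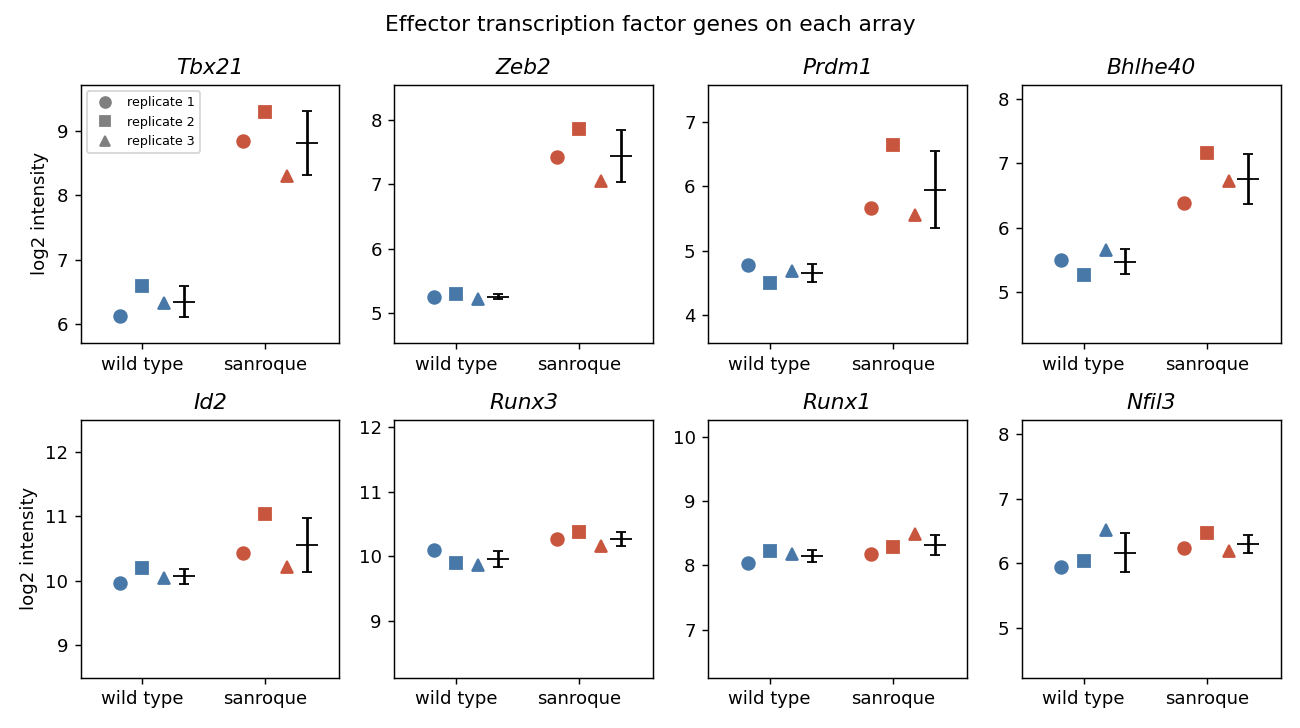
Log2 intensity of the 8 measured factors on each array, with 3 wild-type and 3 sanroque arrays marked by replicate and the mean with SD in black; every panel spans 4 log2 units. Tbx21, Zeb2, Prdm1 and Bhlhe40 show clear gaps between the groups, Id2 and Runx3 narrow ones, and the groups overlap in Runx1 and Nfil3.

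Tbx21, the T-box factor that turns on the cytotoxic and interferon gamma program, read 8.84, 9.30 and 8.30 on sanroque arrays 1 to 3 against 6.12, 6.60 and 6.32 on wild-type arrays 1 to 3. The groups were separated by 1.70 log2 units, with sanroque replicate 2 highest and replicate 3 lowest. The mean went from 6.35 ± 0.24 to 8.81 ± 0.50 (SD, n = 3 each), a log2 fold of 2.46 ± 0.24 with a 95% interval of 1.89 to 3.04 (limma, Benjamini-Hochberg adjusted p = 0.00388). This was the 43rd largest log2 fold of the 19938 genes. The call held when any single array was left out, with folds of 2.22 to 2.72.

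Zeb2, a zinc finger and homeodomain repressor of terminal effector cells, read 7.42, 7.86 and 7.05 on the sanroque arrays against 5.25, 5.30 and 5.22 on the wild-type ones. The wild-type arrays were almost level, and the lowest sanroque array stood 1.74 log2 units above them. The log2 fold was 2.18 ± 0.19 with an interval of 1.75 to 2.62 (limma, Benjamini-Hochberg adjusted p = 0.00250), the 63rd largest. It was 1.98 to 2.38 with 1 array left out, and called each time. Zeb2 was dim in wild type, where 41.1% of genes read lower. With 16 added to every intensity its log2 fold was 1.81, and it was still called. The order of the sanroque arrays, replicate 2, then 1, then 3, was that of Tbx21.

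Prdm1, which encodes the repressor Blimp-1, was dim in wild type at 4.78, 4.51 and 4.68, where 29.0% of genes read lower. The sanroque arrays read 5.66, 6.64 and 5.55. Replicate 2 stood about 1 log2 unit above the others, and the sanroque SD of 0.60 was exceeded by 0.487% of all genes. The log2 fold was 1.30 ± 0.27 with an interval of 0.66 to 1.93 (limma, Benjamini-Hochberg adjusted p = 0.0401). Without sanroque replicate 2 the fold was 0.95 and the gene was still called (limma, Benjamini-Hochberg adjusted p = 0.0124). It was not called without sanroque replicate 1 (adjusted p = 0.0645 by limma) or without wild type replicate 1, 2 or 3 (adjusted p = 0.135, 0.123 and 0.0895).

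Bhlhe40, a basic helix-loop-helix repressor induced by activation, read 6.39, 7.16 and 6.72 on the sanroque arrays against 5.50, 5.27 and 5.65 on the wild-type ones. The groups were 0.74 log2 units apart, and replicate 2 was again the highest. Its log2 fold was 1.28 ± 0.19 with an interval of 0.82 to 1.74 (limma, Benjamini-Hochberg adjusted p = 0.0157). The call was lost without wild type replicate 1 or 2 (limma adjusted p = 0.0815 and 0.0562), where the folds were 1.30 and 1.18.

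The 4 factors that did not pass all had small folds. Id2, the inhibitor of E proteins, read 10.43, 11.03 and 10.21 on the sanroque arrays against 9.97, 10.20 and 10.04 on the wild-type ones. Its groups were separated by 0.0097 log2 units, and the fold of 0.49 ± 0.20, with an interval of 0.02 to 0.95, fell to 0.25 without sanroque replicate 2 (limma, Benjamini-Hochberg adjusted p = 0.236 with all arrays). Runx3, the runt-domain factor of the CD8 lineage, read 10.27, 10.38 and 10.16 on the sanroque arrays against 10.09, 9.90 and 9.86 on the wild-type ones. Its groups did not overlap, by 0.0625 log2 units, and its fold was 0.32 ± 0.09 with an interval of 0.10 to 0.53 (limma, Benjamini-Hochberg adjusted p = 0.104).

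Runx1, the relative of Runx3, read 8.18, 8.29 and 8.48 on the sanroque arrays against 8.04, 8.23 and 8.18 on the wild-type ones, so the groups overlapped. The fold was 0.17 ± 0.10 with an interval of -0.06 to 0.40 (limma, Benjamini-Hochberg adjusted p = 0.456), and it was 0.086 without sanroque replicate 3. Nfil3, a basic leucine zipper factor needed for NK cell development, read 6.24, 6.47 and 6.20 on the sanroque arrays against 5.95, 6.04 and 6.51 on the wild-type ones. All 3 of its sanroque arrays lay within the wild-type range. Its fold was 0.14 ± 0.16 with an interval of -0.23 to 0.50 (limma, Benjamini-Hochberg adjusted p = 0.782), so a rise of 1.42-fold or more and a fall below 0.852-fold lie outside that interval. The Nfil3 fold came to 0.31 when wild-type array 3 was dropped, and to 0.026, 0.072 and 0.052 when wild-type array 1, wild-type array 2 or sanroque array 2 was. For these 4 genes a miss of the threshold does not show that the genotypes are alike.

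**Figure D2:**
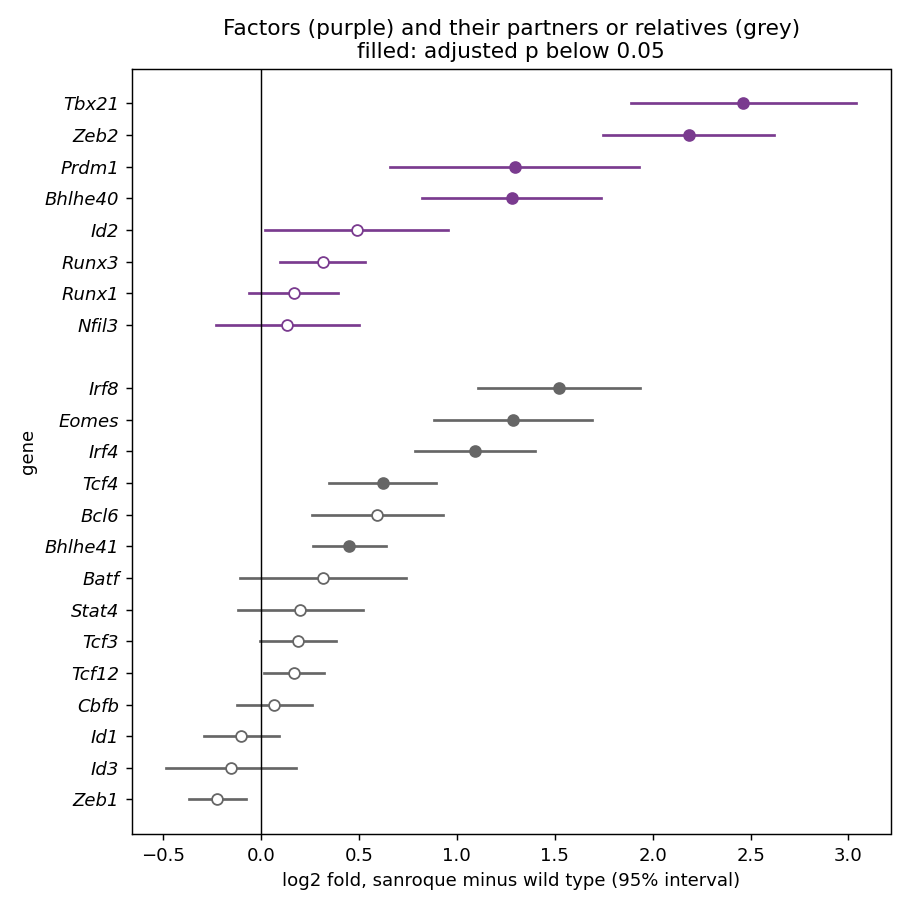
Log2 fold of sanroque over wild type with its 95% interval from limma, for the 8 factors in purple and 14 partners or relatives in grey; filled points passed at an adjusted p below 0.05. The intervals of Tbx21 and Zeb2 start at 1.89 and 1.75, above the fold of every other gene shown.

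The factors varied among the sanroque arrays. Sanroque replicate 2 was the highest sanroque array for 7 of the 8 factors, and replicate 3 for Runx1. Replicate 2 was the highest for 32.0% of all genes and for 41.1% of the 650 genes called higher. Replicate 3 was the lowest sanroque array for 6 of the 8, with Runx1 and Bhlhe40 lowest in replicate 1. Replicate 3 was the lowest for 8190 of all 19938 genes and 202 of the 650 called higher. The median SD of the 8 factors was 0.40 in sanroque and 0.13 in wild type, against 0.18 and 0.13 for the genes called higher and 0.10 and 0.11 for all genes.

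**Figure D3:**
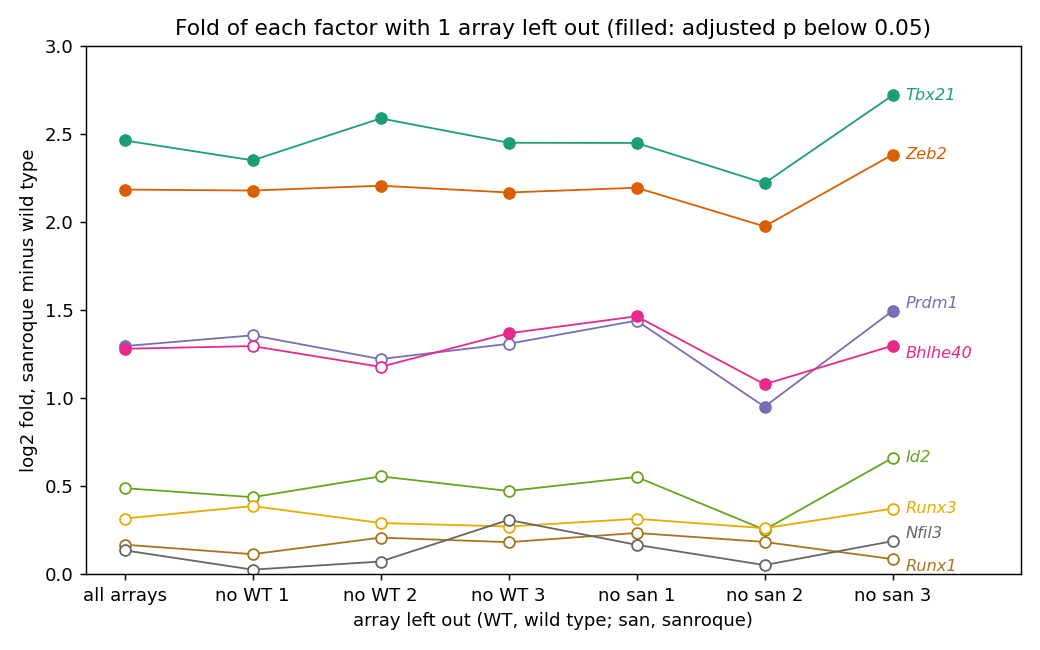
Log2 fold of each factor with all 6 arrays and with each array left out in turn; filled points passed at an adjusted p below 0.05. Tbx21 and Zeb2 pass in every column, Bhlhe40 in 4 of the 6 left-out columns, Prdm1 in 2, and Id2, Runx3, Runx1 and Nfil3 in 0.

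Partners and relatives of these factors were examined as well. Of 14 measured, 5 rose and 0 fell, with 7 higher and 1 lower at an unadjusted p below 0.05, and the median log2 fold was 0.26. Irf8, a factor of myeloid, B and activated T cells, rose by 1.52 ± 0.18, and Eomes, the T-box relative of T-bet, by 1.29 ± 0.17 (limma, Benjamini-Hochberg adjusted p = 0.00587 and 0.0107). Irf4, induced through the antigen receptor and also high in plasma cells, rose by 1.09 ± 0.13. The other two were Tcf4, an E protein bound by Id2 (0.62 ± 0.12), and Bhlhe41, the relative of Bhlhe40, which was dim (0.45 ± 0.08). They are named to complete the count of 5. Without wild type replicate 1 the count was 2, without sanroque replicate 1 it was 3, and Eomes was lost without wild type replicate 1. Of single arrays left out, Tcf4 kept its call only without wild type replicate 2, and Bhlhe41 only without wild type replicate 3 or sanroque replicate 3.

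Unequal change within an array was tested for 5 pairs with both genes measured, by an exact two-sided permutation test whose smallest possible p with 3 against 3 is 0.1. The Zeb2 level relative to Zeb1, its relative of naive cells, was higher in sanroque by 2.41 log2 units in 3 of 3 arrays (exact permutation p = 0.1, adjusted 0.25 over the 5 pairs). Zeb1 itself had a fold of -0.22 ± 0.06 and missed the threshold (limma, Benjamini-Hochberg adjusted p = 0.0960). Tbx21 rose relative to Eomes by 1.18, also in 3 of 3 arrays with exact permutation p = 0.1 (adjusted 0.25). The differences for Prdm1 against its antagonist Bcl6 (0.70), Id2 against Id3 (0.64) and Runx3 against Runx1 (0.15) were above the wild-type range in 2 of 3 sanroque arrays, with exact permutation p of 0.2, 0.3 and 0.3 (adjusted 0.3 each). No pair could pass in a design of this size. Bcl6 had a fold of 0.60 and Id3 of -0.15, and neither passed.

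Genes that T-bet is known to activate rose with it in part. Of 18 measured, 9 rose and 0 fell, with 15 higher at an unadjusted p below 0.05, and the median log2 fold was 1.87 against -0.03 over all genes. The chemokine gene Ccl5 read 12.81, 13.49 and 12.66 on the sanroque arrays against 8.24, 8.91 and 8.16 on the wild-type ones. Klrg1, a receptor of terminal effector cells, read 8.70, 9.29 and 8.05 against 4.59, 4.26 and 4.20, and Gzmb, a granule protease, 9.44, 10.96 and 9.11 against 5.37, 5.93 and 5.30. All 3 were highest in sanroque replicate 2, as were 14 of the 18 genes on this list.

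More genes of this list are given here, picked with their values known. Of the 18, 15 had a fold above 0. Those of Il18r1 (-0.24 ± 0.24), Xcl1 (-0.13 ± 0.16) and Txk (-0.10 ± 0.08) were below 0 and not called. Cx3cr1, S1pr5 and Cxcr3, receptors that direct effector cell traffic, rose by 3.13 ± 0.27, 1.96 ± 0.19 and 1.87 ± 0.17. Ifng, encoding interferon gamma, and Il12rb2, a chain of the interleukin 12 receptor, had folds of 1.28 ± 0.36 and 1.87 ± 0.46 with groups that did not overlap, and missed the threshold (limma, Benjamini-Hochberg adjusted p = 0.0957 and 0.0637). Il2rb, the interleukin 2 and 15 receptor chain, split the sanroque arrays at 10.13, 11.10 and 11.13 against 10.06 to 10.22 in wild type. Only sanroque replicates 2 and 3 were above wild type there.

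**Figure D4:**
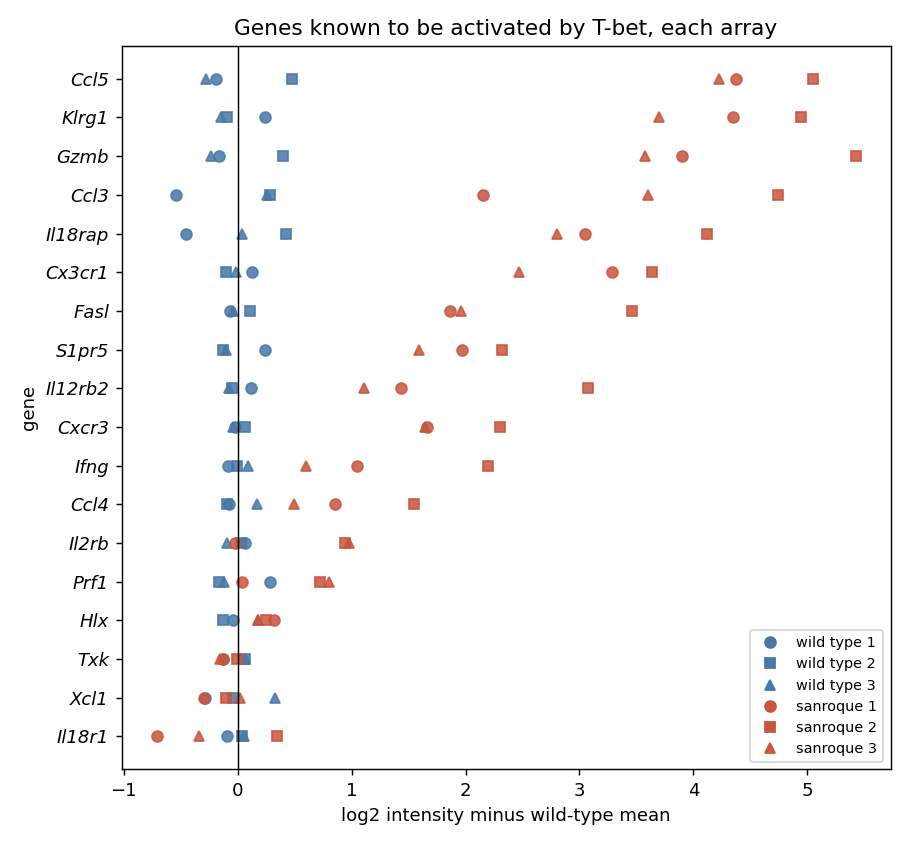
Log2 intensity minus the wild-type mean for 18 genes known to be activated by T-bet, for each wild-type (blue) and sanroque (red) array, with the marker shape giving the replicate. Sanroque replicate 2 (red square) is the rightmost point for 14 of the 18 genes.

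Genes that oppose or follow these factors were taken next. Of 8 genes listed as naive and memory-precursor factors, Foxp3 included, 0 were called in either direction. At an unadjusted p below 0.05, 2 were higher and 0 lower, and the median fold was 0.02. The pair with the smallest p were Foxp3 (0.38 ± 0.11) and Myb (0.72 ± 0.23), with limma adjusted p = 0.109 and 0.140. Foxp3 is the lineage factor of regulatory CD4 T cells and is also on the CD4 T cell list below. Myb was called when sanroque replicate 3 was left out. Of 11 genes that Blimp-1 is known to repress, 0 fell and 2 rose, with 1 lower at an unadjusted p below 0.05. The 2 were Ciita, which switches on MHC class II, at 1.47 ± 0.19 and Pax5, the B cell identity factor, at 1.21 ± 0.26, both also B cell genes. Pax5 was called only without wild type replicate 2 when single arrays were left out.

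Of 11 genes tied to tissue residency through Hobit and Blimp-1, Rgs1, a brake on chemokine signaling, rose by 1.69 ± 0.35 and Itga1, the collagen-binding integrin chain, by 1.27 ± 0.20. Cd69, which retains cells in tissue, fell by 0.53, with 9.62, 10.02 and 9.82 in sanroque against 10.49, 10.23 and 10.32 in wild type (limma, Benjamini-Hochberg adjusted p = 0.0488). Cd69 was not called when any single array was left out. The list also holds Ccr7 (-0.28), S1pr1 (-0.03) and Klf2 (-0.10), none of them called. These are also on the list of genes that Blimp-1 represses, so a rise does not mean the same for every gene here. Rgs1 and Itga1 both lost the call without wild type replicate 1 or 2, and Rgs1 also without wild type replicate 3 or sanroque replicate 1. Of 7 genes that Runx3 is known to activate in CD8 cells, Gzmb and Eomes rose and 0 fell, also at an unadjusted p below 0.05, and Cd8a had a fold of -0.02. Of the CD4-lineage genes that Runx factors silence, Zbtb7b (ThPOK) rose by 0.80 ± 0.18 and Cd4 had a fold of 0.95 ± 0.25, which missed it (limma, Benjamini-Hochberg adjusted p = 0.0490 and 0.0783). Zbtb7b kept its call when wild type replicate 2 was left out and lost it when any other single array was.

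Genes with the most similar array profiles were found by the root-mean-square difference of centred log2 values over the 6 arrays. Nearest to Tbx21 were Slamf7, Lilr4b and H1f5, with differences of 0.18, 0.19 and 0.19, and Zeb2 was as close at 0.19. Nearest to Zeb2 were Smpdl3b, S1pr5 and Ccna2 at 0.17, 0.17 and 0.18. Prdm1 was nearest to Dapk2, Lgals3 and Itga1 (0.12, 0.12 and 0.13), and Bhlhe40 to Gem, Itga1 and Ttc39c (0.09, 0.10 and 0.10). Prdm1 and Bhlhe40 were 0.21 apart, while Tbx21 was 0.64 from Prdm1 and 0.68 from Bhlhe40. This measure depends on the size of the fold as well as on the order of arrays.

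Genes listed as markers of other cells moved with genotype on the same arrays, though a listed gene need not be specific to that cell type. Of 14 monocyte, macrophage and neutrophil markers 13 rose and 0 fell (also 0 at an unadjusted p below 0.05, as in every cell list below except CD8), and their summed intensity went from 933 to 1606 in wild type to 7802 to 12481 in sanroque, with Lyz2, Lcn2 and Adgre1 at folds of 3.12, 4.06 and 1.22. Of 12 B cell markers 6 rose and 0 fell (sums of 2070 to 4936 and 7368 to 9212), with H2-Ab1 at 1.79, Cd74 at 2.08 and Cd22 at 1.81. Of 6 plasma cell markers Jchain (3.28), Mzb1 (1.81) and Xbp1 (0.75) rose and 0 fell (sums of 540 to 848 and 1636 to 2227). Sort purity is not stated in the labels.

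The remaining cell lists were smaller. Of 6 NK markers 3 rose (sums of 399 to 481 and 793 to 1163), namely Eomes, Fcgr3 (0.89), also myeloid, and the NK receptor gene Klre1 (0.83 ± 0.11). Eomes is also on the list of genes that Runx3 activates in CD8 cells. It made up most of each sum, with intensities of 269.1 to 338.5 in wild type and 596.0 to 925.9 in sanroque. Klre1 read 4.11 to 4.31 in wild type and 4.86 to 5.22 in sanroque. Klrb1c, which encodes NK1.1, had a fold of 0.94 ± 0.29 with groups that did not overlap and was not called. The NK receptor gene Ncr1 read 4.13 to 4.84 in wild type and 4.15 to 4.61 in sanroque. The folds of 5 of the 6 NK markers were above 0, with a median of 0.86, and Klre1, Klrb1c and Ncr1 were named after their values were seen. Of 7 CD4 T cell markers 3 rose (sums of 542 to 584 and 840 to 1231), namely Ctla4 (2.13), Ikzf2 (1.07) and Zbtb7b (0.80). Cd4 itself at 0.95, Foxp3 at 0.38, Cd40lg at 0.27 and Tnfrsf4 at -0.10 were not called. Ctla4 and Ikzf2, like Itgax of the next list, were highest in sanroque replicate 2, and Zbtb7b in replicate 1. Which cells these transcripts came from was not tested. Of 8 dendritic cell markers Itgax alone rose, by 1.96 (sums of 1447 to 1624 and 1969 to 2163), and Cst3 and Batf3 had folds of 0.36 and 0.02. Of 4 red cell and platelet markers 0 were called, also at an unadjusted p below 0.05 (sums of 129 to 145 and 129 to 149), with Alas2 at 0.25 and Itga2b at -0.09. Of 6 CD8 T cell markers 0 rose, also at an unadjusted p below 0.05, and Cd3d fell by 0.52, with Cd3g at -0.14 (sums of 34821 to 36081 and 32032 to 32824).

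**Figure D5:**
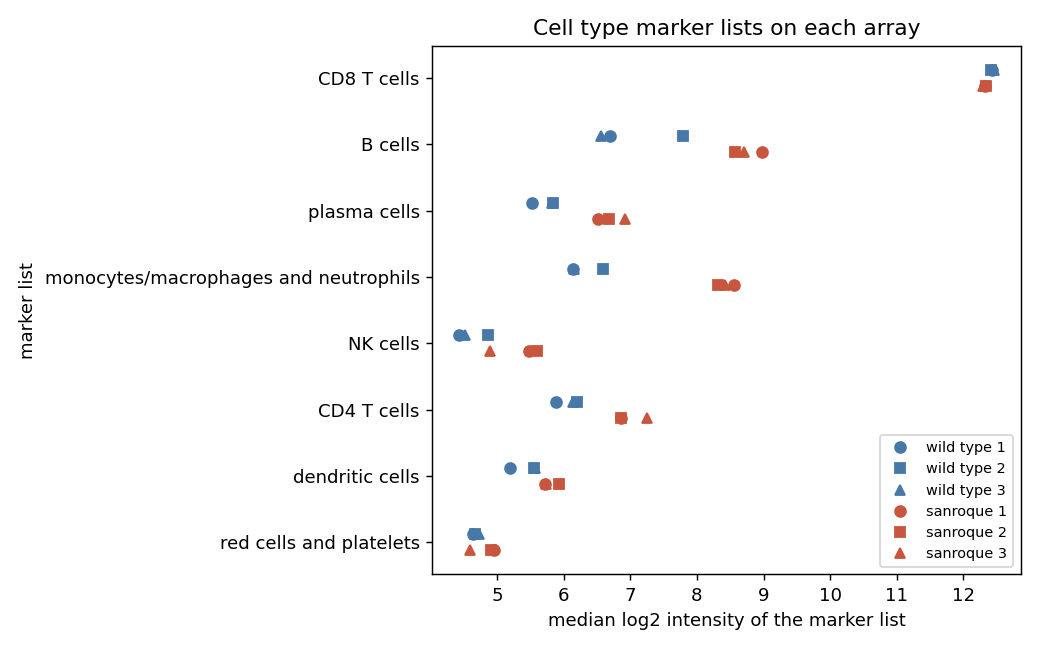
Median log2 intensity of 8 cell type marker lists on each array, wild type in blue and sanroque in red, with the marker shape giving the replicate. Every sanroque median lies above every wild-type one for B, plasma, myeloid, NK, CD4 T and dendritic cells, and below for CD8 T cells; the groups overlap for red cells and platelets.

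The order of the sanroque arrays varied between the marker lists. No factor was highest in sanroque replicate 1, while 8 of the 14 myeloid markers were. Sanroque replicate 2, where 7 of 8 factors were highest, was highest for 3 of the 14 myeloid and 0 of the 12 B cell markers, and lowest for 11 of the 12 B cell markers. Dendritic cell markers were highest in replicate 2 for 5 of 8 and lowest in replicate 3 for 6 of 8, and NK markers for 3 of 6 and 3 of 6. Plasma cell and CD4 T cell markers were highest in replicate 2 for 2 of 6 and 2 of 7. With an array score of B cell and myeloid markers as a covariate, 0 of the 8 factors and 0 of all genes were called. The fold was then 1.89 ± 0.91 for Tbx21, 2.26 ± 0.71 for Zeb2, 2.32 ± 0.94 for Prdm1 and 2.45 ± 0.56 for Bhlhe40 (limma, Benjamini-Hochberg adjusted p = 0.711, 0.690, 0.695 and 0.690). The score itself separated the genotypes, from -1.27 to -0.43 in wild type and from 0.82 to 1.14 in sanroque, with no overlap on these 6 arrays. The fit therefore cannot tell the score apart from genotype, and the part of other cells in the rise of each factor was not tested. Without both sanroque replicate 1 and wild type replicate 2, Tbx21, Zeb2 and Bhlhe40 were called with folds of 2.57, 2.22 and 1.36, and Prdm1 (1.37) was not (limma, Benjamini-Hochberg adjusted p = 0.166).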

How the data were processed

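RNA of 3 wild-type and 3 sanroque samples was measured on Affymetrix gene arrays, 1 sample per array. The deposited values are linear intensities of probe sets, from 9.56 to 31996, obtained from biotinylated cRNA per the labels' protocols. Per the submitters' processing notes Partek was used, in no stated role, and how signals were corrected, summarized and scaled is not stated there. Array medians were 53.6 to 56.9, so log2 was taken without rescaling. Precision is limited by having 3 arrays a group.

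Of 35399 probe sets, 21789 had exactly 1 gene symbol, 1621 several, and 11989 no entry. Names followed the GRCm38.p6 gene table (19856 of 19938 genes matched), and the brightest probe set per gene was used. Each of the 8 measured factors had 1 such probe set. The test was limma 3.58.1 in R 4.3.3 (lmFit, eBayes, two-sided), checked on simulated data. The simulated noise was normal, with the same SD in both groups and no array effects. It therefore does not show how calls hold with unequal SDs or with arrays that stand apart. P-values weigh a difference in means against the spread between these samples, which limma moderates with the spread of all genes.

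The factors and lists were chosen with earlier results of these data known. Named genes were the factors, the pair genes, up to 3 called genes per list with the largest fold or the 2 with the smallest p, 2 bright markers and the 1 with the smallest p per cell list, and 3 nearest profiles per called factor. Promoter windows are from RefSeq, GRCm38.p6. Figures were drawn with matplotlib 3.10.9. Alternatives were other probe sets, dim-gene filters, an offset of 16, normalizations, variance models, array weights, a replicate block and left-out arrays. Leaving out 2 arrays together and the marker score as a covariate were added after seeing the data.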

Additional observations from a re-analysis of the deposited data

How the results depend on the processing

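All 8 factors kept a fold above 0 in each alternative in which they were tested, and 0 were called lower in any. The 4 factors called higher numbered 2 to 4 with single arrays left out, 1 with a mean of at least 7 (3 of the 4 were not tested there), 0 without moderation, 8 with array weights, 2 with the replicate block (Tbx21 and Zeb2), and 0 with the marker score. Prdm1 was also not called with the offset of 16 (limma adjusted p = 0.0894). The 1151 calls over all genes numbered 218 to 1315 with single arrays left out, 4 without moderation, 4733 with array weights (where wild type replicate 1 had a weight of 7.99 against at most 1.71 elsewhere), 301 with the replicate block, 353 without both arrays that stand apart and 0 with the score. The 9 calls among T-bet genes numbered 7 to 12 with single arrays left out, 0 without moderation and 0 with the score. The pair differences kept their sign, at 2.21 to 2.60 for Zeb2 and Zeb1, 1.10 to 1.30 for Tbx21 and Eomes, 0.20 to 1.02 for Prdm1 and Bcl6, 0.28 to 0.97 for Id2 and Id3 and 0.08 to 0.29 for Runx3 and Runx1 with single arrays left out. The labels do not say whether the replicate numbers pair the samples. Same-numbered deviations correlated at -0.05, -0.16 and -0.36, which cannot decide it with 3 arrays a group and arrays that stand apart.

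With the score, folds reversed for Cd22 (-0.22), Cd74 (-1.29), H2-Ab1 (-1.34), Jchain (-1.81), Pax5 (-0.85), Tcf4 (-0.23), Zbtb7b (-0.26), Cst3 (-0.16), Cd69 (0.072), Cd8a (0.059), Id3 (0.022), Itga2b (0.34) and Tnfrsf4 (0.24). The score is built from several of these genes, and for the others the cause was not tested. Near 0 the sign of Batf3 turned with quantile normalization (-0.027), median centring (-0.0097), array weights (-0.031), single arrays left out (-0.15 to 0.13) and both arrays left out (-0.17). That of Ncr1 turned with array weights (0.080), without wild type replicate 2 (0.058, against -0.30 without wild type replicate 1) and without both arrays (0.084), and that of Tnfrsf4 without sanroque replicate 1 (0.026) and without both arrays (0.014). For these 3 genes the cause was not tested. Groups of 3 arrays and the low intensities of Prdm1, Zeb2 and Bhlhe40 in wild type limit what can be resolved.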
